A study of Mus musculus with 2 samples.

Results

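The Notch genes described here are 10 members of the pathway, 3 receptors (Notch1, Notch2 and Notch3), 3 ligands (Dll1, Dll3 and Jag1) and 4 transcription factors of the Hes and Hey family (Hes1, Hes5, Hes6 and Hey1), chosen by name among the 19059 genes of a mouse single-cell RNA series. All 10 were present, each as 1 row of the count tables, and none of them was used to define a class of cells. The tumors were orthotopic glioblastomas: mGSC, a mouse glioblastoma stem cell line of genotype Trp53+/- and Nf1+/-, was injected into the right striatum of female C57BL/6 mice aged 6 to 8 weeks, so every group is a model built on 1 line in an immunocompetent host. Mice received either vehicle or Xevinapant at 50 mg/kg/day by oral gavage for 7 days. Xevinapant is a SMAC mimetic, a small molecule that antagonises the inhibitor of apoptosis proteins cIAP1, cIAP2 and XIAP. Each treatment group is 1 labelled sample, whose library name calls it a pool, deposited as 4 matrices. The study describes as many individual tumors in a group as there are matrices, but the labels tie no matrix to an animal.

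Notch receptors are membrane proteins cut by ADAM proteases and then by gamma-secretase when a Delta or Jagged ligand on a neighbouring cell engages them, and the released intracellular domain joins RBPJ and Mastermind at target genes. Hes1, Hes5 and Hey1 are classical targets that repress proneural genes, whereas Hes6 is a family member that is induced by proneural factors and antagonises Hes1. Dll1 and Jag1 activate receptors on neighbouring cells, and Dll3 is a divergent ligand that is known to inhibit Notch within the cell that makes it. In the brain Notch maintains astroglial and progenitor states, and in vessels Notch3 marks mural cells, which wrap the endothelium.

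On mouse build GRCm38 the receptors lie at chr2:26457903-26516663 (Notch1, ENSMUSG00000026923), chr3:98013527-98150361 (Notch2, ENSMUSG00000027878) and chr17:32120820-32166852 (Notch3, ENSMUSG00000038146). The ligands lie at chr17:15367354-15376872 (Dll1, ENSMUSG00000014773), chr7:28293553-28302238 (Dll3, ENSMUSG00000003436) and chr2:137081456-137116644 (Jag1, ENSMUSG00000027276). The Hes and Hey genes lie at chr16:30064384-30067796 (Hes1, ENSMUSG00000022528), chr4:154960923-154962371 (Hes5, ENSMUSG00000048001), chr1:91411483-91414038 (Hes6, ENSMUSG00000067071) and chr3:8663359-8667256 (Hey1, ENSMUSG00000040289).

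Promoters of 8 of the 10 members, all but Hes1 and Hey1, were read from RefSeq (build GRCm38.p6). They were windows from 250 bases before to 50 bases after a transcript start, 10 windows in all. Those of Hes5 and Dll3 are shown because these genes differed in opposite directions in AC-like cells. Capitals mark TGGGAA or its reverse complement TTCCCA, the core of the RBPJ recognition sequence.
Hes5, chr4:154960673-154960972, plus strand: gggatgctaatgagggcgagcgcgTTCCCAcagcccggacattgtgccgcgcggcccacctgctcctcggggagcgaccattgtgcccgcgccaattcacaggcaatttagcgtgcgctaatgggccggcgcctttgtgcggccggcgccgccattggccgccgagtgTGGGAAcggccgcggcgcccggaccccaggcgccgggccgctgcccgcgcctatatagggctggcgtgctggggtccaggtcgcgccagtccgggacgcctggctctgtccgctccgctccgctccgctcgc
Dll3, chr7:28301736-28302035, minus strand: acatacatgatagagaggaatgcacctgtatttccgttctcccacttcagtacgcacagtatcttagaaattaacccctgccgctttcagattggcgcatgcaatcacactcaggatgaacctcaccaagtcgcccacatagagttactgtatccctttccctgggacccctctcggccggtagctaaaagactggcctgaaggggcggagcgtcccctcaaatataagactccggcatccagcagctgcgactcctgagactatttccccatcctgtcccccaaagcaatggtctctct
The Hes5 window held the RBPJ core at 2 places, starting at -226 and -82 from the transcript start, and the other 9 windows of members held none. Of all 32851 promoter windows of the same length, 25.56% held at least 1 such match on either strand and 3.79% held 2 or more. The Dll3 window held CAGCTG, a palindromic E-box of the kind proneural factors bind, at -7. It was also held by a Dll1 window (-132), the Jag1 window (-82) and the Hes6 windows (-171 and -150), and by 16.3% of all windows. A match describes these letters in these windows, and binding was not measured.

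The 8 matrices held 56943 barcodes with 71835789 to 300206053 UMIs (unique molecular identifiers, counts of captured transcripts) per matrix, and 49850 barcodes were kept. Matrices 1 and 3 of vehicle, 1 and 2 of Xevinapant and 3 and 4 of Xevinapant were the closest. Their chi-square per degree of freedom in cell makeup was 1.35 to 2.26, and 6.93 or more in the 9 other pairs within a group. Expression in OPC-like cells was compared by the mean squared difference over its sampling variance between cells. It was 1.44 to 4.20 in the closest pairs and 10.8 or more in the others. Sampling error alone gives about 1 in both measures, so the closest pairs still differed beyond it. These pairs were joined by their makeup alone, which left 3 vehicle samples and 2 Xevinapant samples. Results that change when each matrix is counted as 1 sample are given as such. The labels give each treatment its own library and its own batch date, so treatment and batch cannot be told apart, and since no label ties a matrix to an animal the p-values measure only the spread between these samples. Across the groups 1413 full cell barcodes were shared, of which 1152 had over 20 times fewer UMIs in one matrix, and those low copies were removed.

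Cells were sorted into classes by UMIs of marker genes. The tumor gate held 39881 cells, of which 2757 were gated by glioma markers as astrocyte-like (AC-like), 17843 as oligodendrocyte progenitor-like (OPC-like), 2799 as committed OPC-like, 144 as oligodendrocyte-like and 1886 as mesenchymal-like (MES-like). A further 13449 cells had no state and 822 had more than 1, and these entered no state. The MES-like gate used Ndrg1, Akap12 and Wwtr1, which the study names, with Vegfa, Adm, Bnip3 and Slc2a1 added. Several of these are hypoxia-induced genes, so the gate does not tell hypoxic from mesenchymal cells, and the part of hypoxia was not tested. The neural progenitor-like (NPC-like) state, 728 cells, was gated both inside and outside the tumor gate. Non-malignant classes held 188 endothelial cells, 48 mural cells, 468 fibroblasts, 648 microglia, 750 macrophages and monocytes, 239 neutrophils and 144 lymphoid cells. A further 1229 barcodes with markers of more than 1 class were set aside. Median depth ran from 1537 UMIs per neutrophil to 14900 per tumor cell. Of the 728 NPC-like cells 181 passed the tumor gate, and the 14 tumor genes kept as a background list stood at 26.02 UMIs per 10000 in them against 67.1 in tumor cells, so the markers do not settle whether these cells are malignant. Host astrocytes share markers with the AC-like gate, and the same 14 genes stood at 70.01 UMIs per 10000 in AC-like cells against 3.69 to 6.64 in the non-malignant classes.

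Levels are given as UMIs of a gene per 1000000 UMIs of a class in a sample (CPM), with the mean ± SD over the 5 samples. Capture is by probe, so levels are compared for 1 gene between classes and not between genes. Differences are log2 fold changes with their standard error (SE) from edgeR's quasi-likelihood test on UMI sums per sample and class, with the sample as a block, adjusted by Benjamini-Hochberg over all genes tested and called at an adjusted p under 0.05. Each state was compared with the mean of the other 5 states.

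AC-like cells had the most Notch2, Notch3, Hes5 and Hey1 and the least Dll3 and Dll1 of the 6 states, by their means. All 10 members passed the test in AC-like cells, 7 higher and 3 lower, where 68.6% of the 12743 genes tested passed. In OPC-like cells 5 members were higher and 1 lower (51.3% of genes passed), in committed OPC-like cells 2 and 8 (44.8%), in oligodendrocyte-like cells 0 and 9 (37.2%), in NPC-like cells 2 and 7 (66.0%), and in MES-like cells 8 and 1 (60.7%). Of the oligodendrocyte-like calls Jag1 was lost in 3 of 12 alternatives (adjusted p up to 0.11). Doubling the marker cuts gave 195 oligodendrocyte-like cells, more than the 144 with the chosen cuts. There Dll3 was at -0.0097 (adjusted p = 0.97) and Notch2 at -0.20 (adjusted p = 0.26), from -0.51 and -0.56. Since many genes differ between states, these counts are to be read against those shares.

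**Figure D1:**
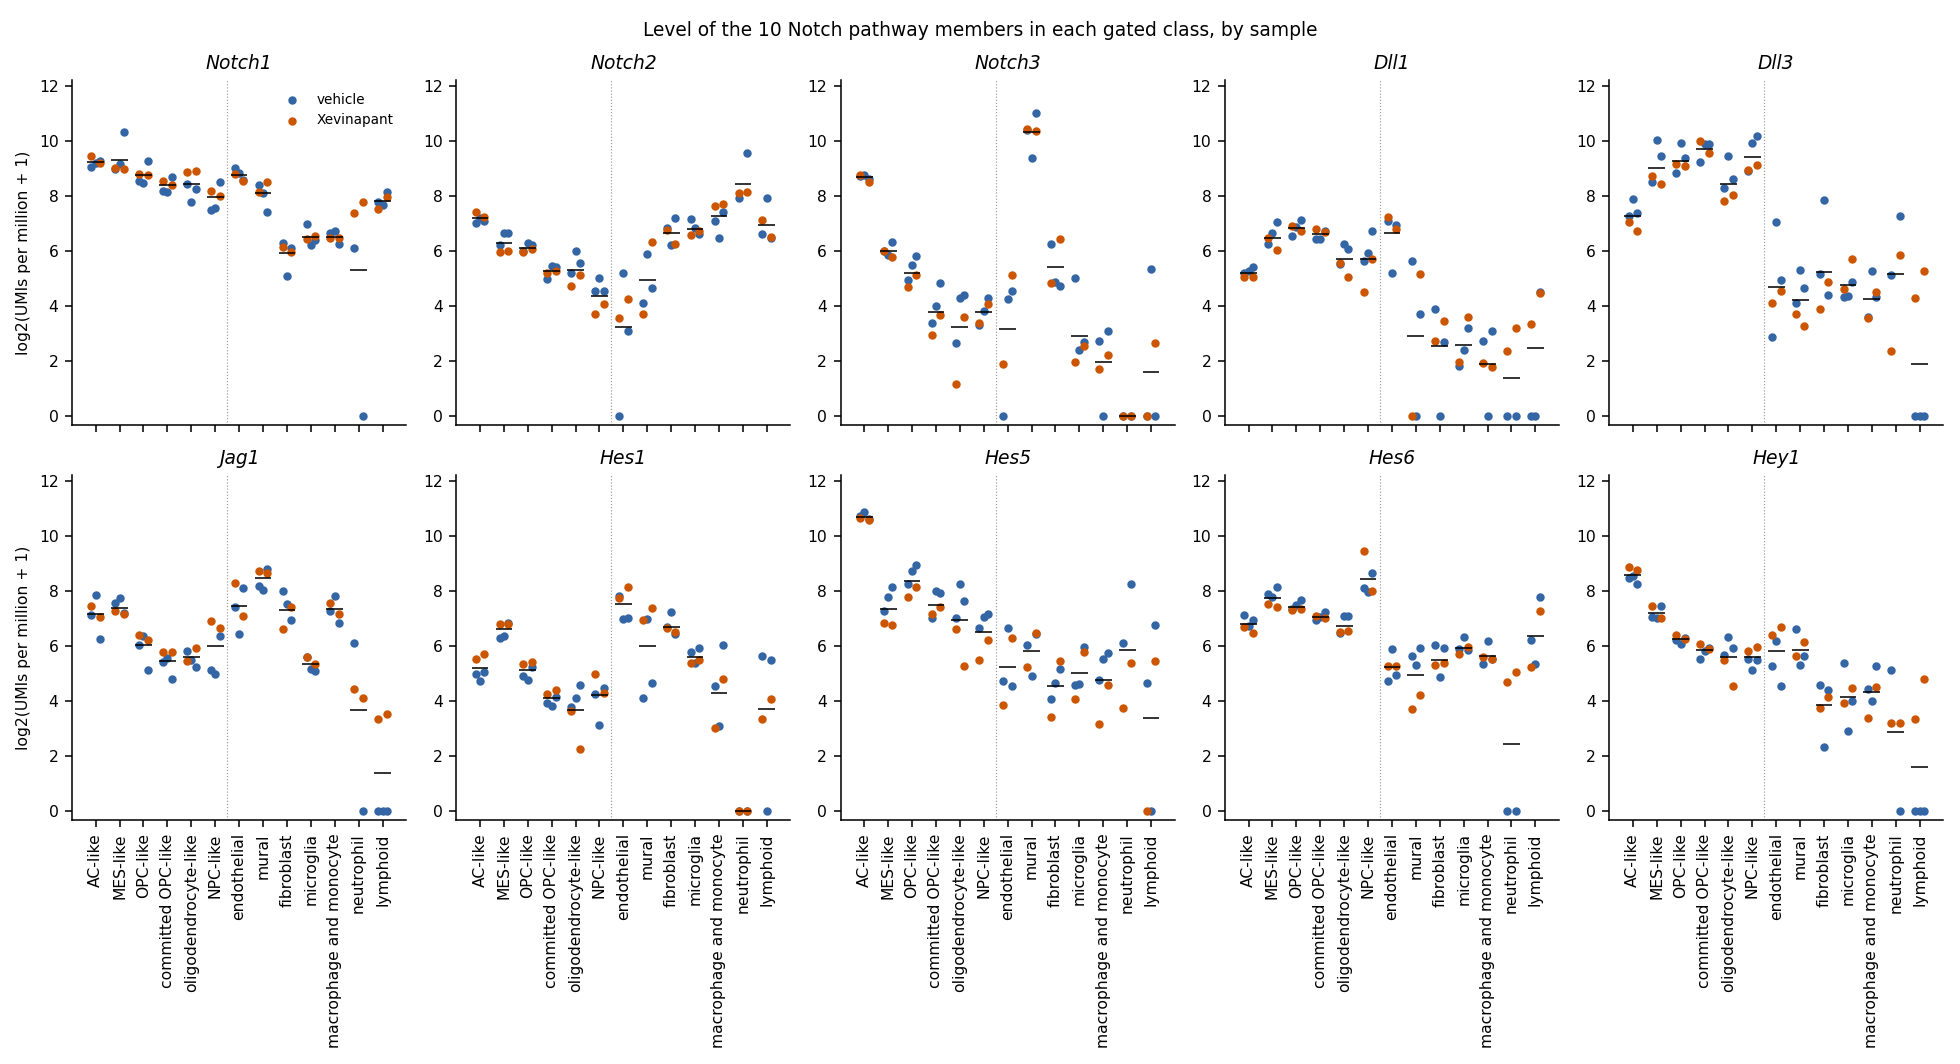
Level of each member, as log2(CPM + 1), in the 6 states (left of the dotted line; NPC-like cells lie mostly outside the tumor gate) and the 7 non-malignant classes, with 1 point per sample holding at least 5 cells (blue, vehicle; orange, Xevinapant) and a line at the mean. Notch3 stands highest in mural and AC-like cells, Hes5 and Hey1 in AC-like cells, Dll3 in the tumor states other than AC-like, and Hes1 in endothelial cells.

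Among the receptors, Notch3 separated the states most. In AC-like cells it stood at 421, 430.5 and 390.2 CPM in the vehicle samples and at 437 and 361 CPM in the Xevinapant samples. In OPC-like cells the corresponding values were 29.7, 44.1, 55.4, 24.9 and 34.3 CPM. The ranges of the 2 states did not overlap. Against the mean of the other states the AC-like log2 fold change was 4.36 (SE 0.12, edgeR adjusted p = 1.1e-21). The AC-like cells had 0.31 UMIs per 10000 of the mural marker list, against 127 in mural cells. MES-like cells came next with 63.5 ± 9.36 CPM (n = 5; log2 fold change 1.11), and committed OPC-like, NPC-like and oligodendrocyte-like cells had 11.4 to 14.2 CPM on average (log2 fold changes -1.74, -1.62 and -2.16).

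Notch1 was measured in every state with less contrast. It averaged 600.0 ± 59.3 CPM in AC-like cells (log2 fold change 0.72, SE 0.12) and 255 ± 75.1 CPM in NPC-like cells (-0.97, SE 0.14). In MES-like cells Notch1 was at 501, 571 and 1285 CPM in the vehicle samples and at 520.0 and 504 CPM in the Xevinapant samples, so the MES-like mean of 676 rests on vehicle 3. The MES-like call, 0.83 (SE 0.12), was kept whichever sample was left out. Notch2 was at 146 ± 15.9 CPM in AC-like cells (1.83, SE 0.08) and at 20.9 ± 7.39 CPM in NPC-like cells (-1.72, SE 0.14).

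The ligands Dll1 and Dll3 were lowest among the tumor states in AC-like cells. Dll3 was at 153, 235 and 167 CPM in vehicle AC-like cells and at 132 and 104 CPM in Xevinapant AC-like cells, below every value of the same gene in committed OPC-like cells, which were 597, 950.3, 944, 1019.5 and 747 CPM. The log2 fold change was -1.85 (SE 0.15) in AC-like and 1.01 (SE 0.12) in committed OPC-like cells. OPC-like cells were intermediate for Dll3, with 642 ± 203 CPM (0.46, SE 0.12), and overlapped committed OPC-like cells. In NPC-like cells Dll3 averaged 735 ± 318 CPM (0.62, SE 0.12), but with marker cuts doubled the log2 fold change was -0.14 (adjusted p = 0.41). Dll1 had its highest mean in OPC-like cells, 114 ± 16.9 CPM (0.84, SE 0.10), and its lowest in AC-like cells, 36.0 ± 3.84 CPM (-1.06, SE 0.12), without overlap between these states. In NPC-like cells Dll1 was called lower (-0.36, SE 0.13), a call lost in 4 of 12 alternatives (adjusted p up to 0.083). It was called lower in oligodendrocyte-like cells too (-0.52, SE 0.18), a call lost without vehicle 1, vehicle 3 or Xevinapant 2 (adjusted p up to 0.082), and the value turned to 0.23 (adjusted p = 0.21) with marker cuts doubled.

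Jag1, the Jagged ligand of the set, did not follow the Delta genes. It averaged 169.7 ± 30.3 CPM in MES-like cells (1.41, SE 0.17) and 151 ± 57.0 CPM in AC-like cells (1.13, SE 0.17), which overlapped, and 44.5 ± 11.1 CPM in committed OPC-like cells (-1.04, SE 0.19). The AC-like values were spread, from 76.4 CPM in vehicle 3 to 231 CPM in vehicle 2.

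The targets Hes5 and Hey1 were, like Notch3, highest among the tumor states in AC-like cells. Hes5 was at 1685, 1879 and 1567 CPM in vehicle AC-like cells and at 1591 and 1516 CPM in Xevinapant AC-like cells. OPC-like cells, the next state, had 305, 418, 495, 218 and 282 CPM in the same order, and no sample of the 2 states overlapped. The AC-like log2 fold change of Hes5 was 3.40 (SE 0.12, edgeR adjusted p = 1.7e-19). Hes5 was lowest in NPC-like cells, with 98.8 ± 40.7 CPM (-1.70, SE 0.17), and averaged 189 ± 89.2 CPM in those inside the tumor gate. Hey1 was at 352, 373, 308, 468 and 435 CPM in AC-like cells against 73.2, 67.4, 78.2, 84.0 and 76.2 CPM in OPC-like cells, which again did not overlap (AC-like log2 fold change 2.56, SE 0.08).

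Hes1 and Hes6 had other leading states. Hes1 was at 77.5, 81.3 and 114 CPM in vehicle MES-like cells and at 111 in both Xevinapant samples, above every value in AC-like cells, which ran from 25.4 to 52.0 CPM. The MES-like log2 fold change was 2.23 (SE 0.09, edgeR adjusted p = 1.9e-17), while Hes5 was lower in the same cells (-0.63, SE 0.15). Hes6 was at 272, 251, 398, 707 and 252 CPM in NPC-like cells (1.254, SE 0.13) and overlapped MES-like cells, whose values were 238, 219, 283, 182 and 169.9 CPM (0.53, SE 0.13). Its lowest means were in oligodendrocyte-like and AC-like cells, at 108 and 112 CPM.

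**Figure D2:**
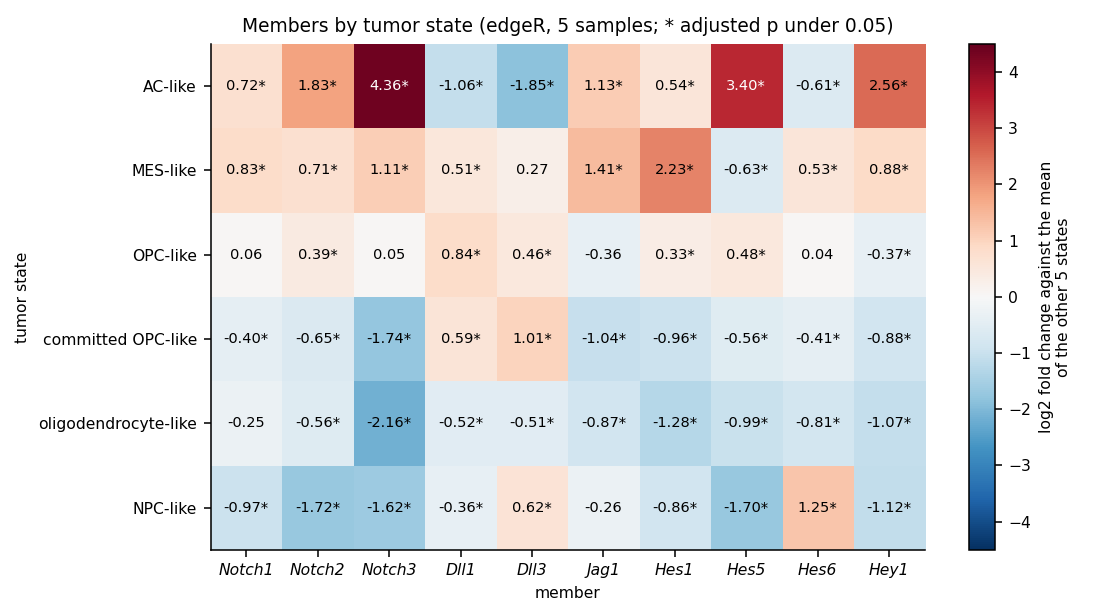
Log2 fold change of each member (columns) in each state (rows) against the mean of the other 5 states, with an asterisk where the adjusted p is under 0.05. The AC-like row holds the largest values, 4.36 for Notch3 and 3.40 for Hes5, and the ligands Dll1 and Dll3 are negative there; OPC-like Notch3 turns from 0.05 to -1.06 with marker cuts doubled.

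OPC-like cells made up the largest state. Dll1 (0.84), Hes5 (0.48), Dll3 (0.46), Notch2 (0.39) and Hes1 (0.33) were called higher and Hey1 (-0.37) lower, and with marker cuts doubled, which left 4546 OPC-like cells, Hes5, Notch2 and Hes1 lost their call (adjusted p = 0.31, 0.84 and 0.18). With those cuts Notch3 was called lower in OPC-like cells (-1.06, adjusted p = 2.6e-05), from 0.05 with the chosen cuts.

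The share of cells with a UMI was compared after thinning every cell to 2000 UMIs. Hes5 was found in 82.3% ± 4.70 of AC-like cells and in 37.4% ± 9.79 of OPC-like cells (SD, n = 5), against 5.32% of fibroblasts, which should lack it. Without thinning the Hes5 shares were 92.2%, 74.5% and 20.3%. Notch3 was found in 50.2% ± 3.36 of AC-like cells, 6.45% ± 2.03 of OPC-like cells and 1.54% of microglia. Hey1 was found in 48.2% ± 5.15 of AC-like cells and 12.03% ± 1.09 of OPC-like cells. Dll3 was found in 61.8% ± 6.34 of committed OPC-like cells, 55.2% ± 9.70 of OPC-like cells and 17.2% ± 4.18 of AC-like cells. Of all tumor cells 54.6% ± 5.56 had a Notch1 UMI, 47.9% ± 9.25 a Dll3 UMI and 7.29% ± 1.42 a Hes1 UMI, shares that also depend on each gene's probes.

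The wider pathway was read from 9 gene lists of 68 genes, of which 66 had a row. The 3 receptors tested are the members Notch1, Notch2 and Notch3, so their counts repeat results given above. The ligand list and the Hes and Hey list hold members too. In AC-like cells 3 of 3 receptors, 6 of 8 Hes and Hey genes and 6 of 8 proteases were higher and 0, 1 and 0 lower, with list medians of 1.83, 2.24 and 0.38 against -0.04 over all genes, of which 32.3% were higher and 36.3% lower. Lunatic fringe (Lfng), which glycosylates Notch and alters its response to ligands, had the largest difference of all 9 lists, 5.56 (SE 0.12). Id3 (4.35) and Id1 (3.99), inhibitors of basic helix-loop-helix factors, were higher too, and so was Id4 (4.91), which is a marker of the AC-like gate and thus no finding. Of the nuclear complex 1 of 11 genes was higher and 9 were lower (median -0.26), among them Rbpj itself (-0.55, SE 0.06). In MES-like cells Rbpj was higher (0.89, SE 0.06), with 6 of 8 ligands higher and 0 lower (median 0.62 against -0.02 over all genes) and 5 of 5 fringe and glycosylation genes lower (median -0.45), where 30.5% of all genes were higher and 30.3% lower.

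In NPC-like cells 3 of 3 receptors were lower, and 1 of 8 Hes and Hey genes was higher and 6 were lower (median -1.41 against -0.03 over all genes, of which 31.4% were higher and 34.6% lower). The Delta gene Dll4 was higher (5.64, SE 0.23), with the proneural factors Neurod1 (4.32, SE 0.17), Neurog2 (4.26, SE 0.40) and Neurog1 (3.92, SE 0.49) and with Manic fringe, Mfng (2.32, SE 0.11). Of the 4 proneural genes tested 3 were higher and 1 was lower. In the 547 NPC-like cells outside the tumor gate Dll4 averaged 120 ± 81.0 CPM over the samples, against 25.1 ± 32.9 CPM in the 181 inside it. Hes5 averaged 46.5 ± 8.03 CPM outside and 189 ± 89.2 CPM inside. Hes6 was at 382 ± 203 and 353 ± 177 CPM and Dll3 at 690.4 ± 350 and 833 ± 336 CPM. The receptors were lower outside on average. Notch1 averaged 181 ± 109 CPM outside and 351 ± 153 CPM inside, Notch2 9.88 ± 4.22 and 38.9 ± 21.5 CPM, and Notch3 9.06 ± 2.63 and 21.0 ± 8.23 CPM. In Xevinapant 1, with 5 cells inside, Notch1 and Notch2 were lower inside. Within samples Hes5 was higher inside than outside and Dll4 lower in 5 of 5, while Hes6 and Dll3 had no single direction. In committed OPC-like cells the Hes and Hey genes were mostly lower, 5 of 8, and Hey2 was the 1 that was higher (1.38, SE 0.18), while 4 of 4 Id genes were lower (median -1.48 against 0.00 over all genes, of which 23.7% were higher and 21.1% lower).

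Cycling tumor cells, 16960 by their marker UMIs, were compared with 11664 tumor cells low in those markers. Notch3 was lower in cycling cells, at 44.8, 53.7 and 68.3 CPM in vehicle and 47.1 and 46.8 CPM in Xevinapant samples, against 106, 111, 151, 86.4 and 136 CPM in cells that were not cycling. The values did not overlap, and the log2 fold change was -1.08 (SE 0.08, edgeR adjusted p = 4.2e-06). Jag1 (-0.70, SE 0.03), Dll3 (-0.41, SE 0.07) and Hey1 (-0.37, SE 0.08) were lower and Hes6 (0.36, SE 0.05) and Notch2 (0.26, SE 0.06) were higher, so 6 of 10 members passed where 73.5% of 14064 genes did. Hes5 did not pass (-0.15, adjusted p = 0.093) and passed in 5 of 12 alternatives (adjusted p down to 0.012). Of the lists, 6 of 8 ligands and 4 of 4 Id genes were lower (medians -0.56 and -1.06), where 37.3% of all genes were lower. AC-like markers moved with the cycle, at 5.84 UMIs per 10000 in cycling cells and 27.8 in the others, and their part in the Notch3 difference was not tested.

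The non-malignant classes were compared with tumor cells, and each level was set beside the UMIs that free tumor RNA would give, scaled in each sample from 14 tumor genes kept out of the gates. Those genes stood at 2.13% to 13.6% of their tumor level in the 7 classes. With all samples together Dll3 was found at 0.395 to 0.805 of what free RNA would give in the 7 classes, and Hes5 at 0.675 to 1.44. These pooled UMIs were thus below the free level for Dll3 and near it for Hes5. The 95% Poisson interval of Dll3 held the free level in neutrophils (4.80 to 18.4 UMIs against 12.6) and lymphoid cells (4.12 to 17.1 against 15.3). By sample Dll3 was above the free level in 3 of 5 neutrophil, 2 of 5 fibroblast, 1 of 5 endothelial and 1 of 5 microglia samples. In microglia 244 Hes5 UMIs (214 to 277) stood against 213, with 2 of 5 samples above the free level, and Hes5 was above it in 4 of 5 mural samples, with 27 UMIs (17.8 to 39.3) against 18.8 in all. The members called were 2 higher and 6 lower in endothelial cells, where 57.5% of 12364 genes passed, 3 and 6 in fibroblasts (63.2%), 1 and 8 in microglia (70.5%), 2 and 8 in macrophages and monocytes (72.1%), 1 and 9 in neutrophils (57.8%), and 0 and 8 in lymphoid cells (53.8%). Fold changes in these comparisons are relative to a median over all genes that lay between -0.83 and -0.07 with TMM scaling, in these 6 classes, and that moved by -0.61 in fibroblasts, by 0.31 in lymphoid cells and by -0.28 to -0.16 in the others without it. Without TMM the share of calls that were higher went from 49.9% to 26.6% in fibroblasts, from 32.7% to 44.6% in lymphoid cells and, in the cell cycle comparison, from 49.2% to 39.0%, and DESeq2 gave 43.9% in lymphoid cells. In the fit with at least 10 cells, which held 1 mural sample, DESeq2 also moved that share from 61.5% to 83.2% for mural against tumor cells and from 54.0% to 70.0% for mural against endothelial cells.

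**Figure D3:**
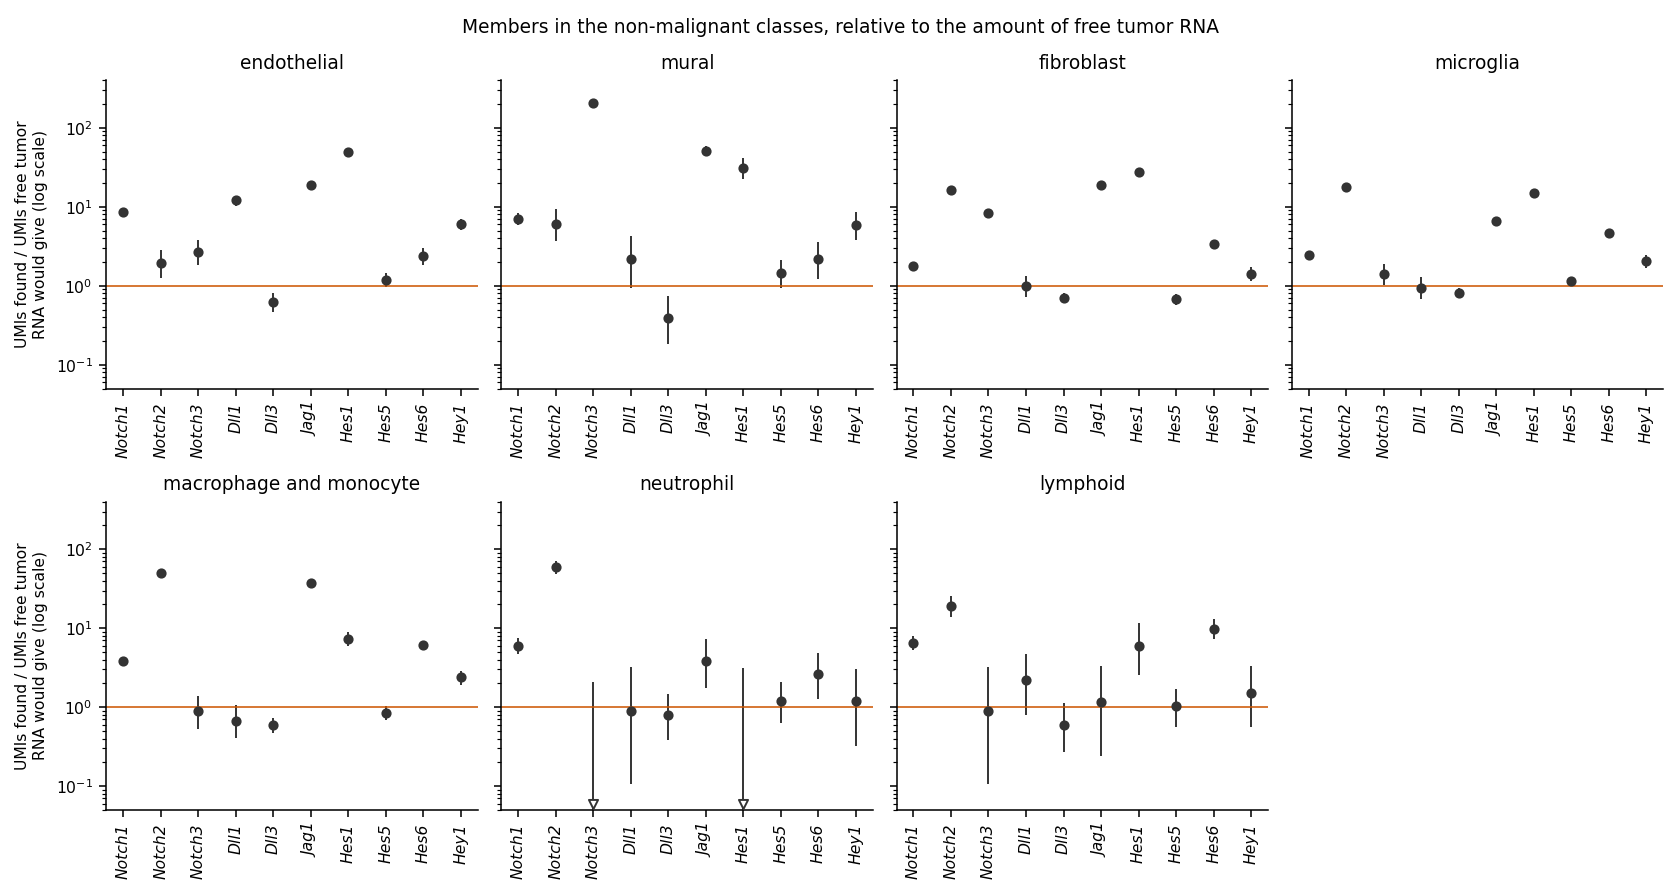
UMIs of each member in 7 non-malignant classes, all samples together, divided by the UMIs that free tumor RNA would give there (log scale; line at 1; bars, 95% Poisson intervals for counting error only; open triangle, 0 UMIs). Notch3 in mural cells (208), Hes1 in endothelial cells (49.8) and Notch2 in neutrophils (59.3) and macrophages and monocytes (50.3) lie far above 1. The Dll3 points lie below 1 in every class, with intervals that reach 1 in neutrophils and lymphoid cells.

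Mural cells had the highest Notch3 of all classes, with 584 UMIs of 443175 in 48 cells, 208 times what free RNA would give. The values were 1358, 661 and 2039 CPM in the vehicle samples and 1393 and 1314 CPM in the Xevinapant samples, above every AC-like value. Only Xevinapant 2 held 10 mural cells, so the mural test was repeated with samples of at least 5 cells, an alternative chosen after seeing the data. There the log2 fold change of Notch3 was 4.31 (SE 0.27, edgeR adjusted p = 9.6e-17) against tumor cells and 6.09 (SE 0.39, adjusted p = 3.6e-15) against endothelial cells, where 37.3% and 18.2% of 10232 genes passed. With the 10-cell minimum the 1 sample gave 3.84 and 5.73. Endothelial markers were at 11.98 and fibroblast markers at 168 UMIs per 10000 in the mural class, against 115 and 1625 in those classes, and Notch3 itself was at 15.5 ± 14.2 CPM in endothelial cells and 48.6 ± 29.3 CPM in fibroblasts. Heyl, a Hey family gene, was higher in mural cells than in tumor cells in the same fit (5.85, SE 0.48), as was Jag1 (2.25, SE 0.26), at 291, 262, 449, 428 and 403 CPM.

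Endothelial cells were the class with the most Hes1, at 223, 127 and 129 CPM in vehicle and 213 and 285 CPM in Xevinapant samples. Every one of these values was above the 30.7 to 49.8 CPM of tumor cells (log2 fold change 2.48, SE 0.25, edgeR adjusted p = 2.1e-10), and the 376 UMIs found were 49.8 times what free RNA would give. Jag1 was higher as well, at 172, 86.2, 273, 309 and 135 CPM (1.26, SE 0.24), although vehicle 2 lay among the tumor values. Notch1 in endothelial cells, at 437 ± 58.3 CPM, was at 8.58 times the free RNA level and did not differ detectably from tumor cells (0.00, SE 0.16), and Dll1, at 111 ± 44.1 CPM and 12.03 times the free RNA level, did not pass either (0.31, SE 0.23, adjusted p = 0.26). Notch2 (-2.16), Notch3 (-1.89), Dll3 (-4.06), Hes5 (-3.09) and Hes6 (-1.98) were lower. Hey1 was called lower (-0.62, SE 0.24, adjusted p = 0.029), a call lost in 7 of 13 alternatives. Of the 7 ligands of the pathway list tested, Dll4 (9.73, SE 0.24) and Jag2 (5.35, SE 0.29), ligands of arterial and sprouting endothelium, differed most.

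Fibroblasts had more Hes1 than tumor cells (1.92, SE 0.24), at 101, 152, 86.5, 99.7 and 89.9 CPM, with no overlap. Jag1 was higher in them too (1.497, SE 0.22), as was Notch2 (0.96, SE 0.19), whose call was lost without TMM (0.34, adjusted p = 0.099). Dll1 and Hes5 in fibroblasts, at 0.998 and 0.675 of the free RNA level, were at background. Notch3 differed little from tumor cells (-0.04, SE 0.28), with sample values from 25.8 to 84.9 CPM and 8.27 times the free RNA level, and it was called higher with marker cuts doubled (0.47, adjusted p = 0.015) and lower without TMM (-0.66, adjusted p = 0.034).

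The myeloid classes had more Notch2 than tumor cells. Notch2 was at 141, 115, 96.7, 96.0 and 106 CPM in microglia (0.67, SE 0.18) and at 134, 87.2, 172, 197 and 208 CPM in macrophages and monocytes (1.32, SE 0.18), 17.6 and 50.3 times what free RNA would give. Lymphoid cells also held Notch2, at 131 ± 64.7 CPM and 19.1 times the free RNA level, and did not pass against tumor cells (0.19). In neutrophils Notch2 was at 242 and 759.8 CPM in vehicle 1 and 2, the latter from 5 cells, and at 272 and 285 CPM in the Xevinapant samples, from 113 UMIs in 239 cells (1.99, SE 0.28, from 3 samples with at least 10 cells). Jag1 was higher than in tumor cells in macrophages and monocytes, at 153, 224, 115, 189 and 142 CPM (1.15, SE 0.21), and lower in microglia (-0.84, SE 0.23), so the 2 classes did not overlap for this ligand. Hes1 in microglia, at 48.2 ± 8.88 CPM, with 289 UMIs where free RNA would give 19.3, did not pass against tumor cells (0.46, adjusted p = 0.094) and passed in 7 of 13 alternatives. In macrophages and monocytes Hes1 was called lower (-0.86, adjusted p = 0.014), with 7 of 13 alternatives losing the call. Notch1 was lower in microglia (-2.16) and in macrophages and monocytes (-2.14), at 2.43 and 3.88 times the free RNA level. In both classes 8 of 8 proteases of the pathway list were higher, led by Psen2, a catalytic subunit of gamma-secretase (3.19 and 3.27), with list medians of 1.2503 and 0.71, where 26.3% and 27.8% of all genes were higher.

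Neutrophils had 0 UMIs of Notch3 and 0 of Hes1 among 405757, which allows up to 7.39 CPM from 3 counts over the class. Against tumor cells, at 76.9 and 42.2 CPM over all samples together, Notch3 was thus at least 10.4-fold and Hes1 at least 5.70-fold lower, and free RNA alone would have given 1.77 and 1.17 UMIs. In lymphoid cells Notch1, a receptor required for T cell development, was at 219, 201, 284, 185 and 252 CPM, 6.50 times the free RNA level, and was below tumor cells (-1.41, SE 0.21). Hes6 in lymphoid cells ranged from 36.9 to 219 CPM, 9.83 times the free RNA level, and 5 of 13 alternatives lost its call (-0.89, adjusted p = 0.0036).

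Xevinapant was then compared with vehicle within each class. With edgeR no member passed in tumor cells, in any state, in cycling or other tumor cells, or in endothelial cells, fibroblasts, microglia, or macrophages and monocytes, where the filter left 6, 9, 9 and 8 of the 10 members to test. Of all genes 0.0% passed in these classes, except in endothelial (0.318%) and MES-like cells (0.256%). The count was 0 of 14500 genes in tumor cells, where 1685 had an unadjusted p under 0.05 and DESeq2 called 284, none of them a member. In fibroblasts, microglia, and macrophages and monocytes 458, 611 and 685 genes had an unadjusted p under 0.05, and in AC-like, OPC-like, committed OPC-like, oligodendrocyte-like and NPC-like cells 1017, 1546, 1522, 1041 and 950 did, with 1017 in cycling and 1405 in other tumor cells. DESeq2 called 11, 0 and 22 genes in the 3 former classes, 42, 185, 88, 17 and 38 in the 5 states, and 85 and 168 in cycling and other tumor cells. Of these calls 1 in oligodendrocyte-like cells was a member, and in MES-like cells 2 members were among the 474 genes DESeq2 called. For a single value 3 against 2 samples cannot go below p = 0.1 in an exact two-sided permutation test, so no such test could have passed.

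In tumor cells Hes1 was at 34.0, 30.7 and 41.0 CPM in vehicle and at 48.8 and 49.8 CPM in Xevinapant samples. The 2 groups did not overlap, with a log2 fold change of 0.44 (95% interval 0.09 to 0.79, edgeR adjusted p = 0.40). Hey1 was at 116, 101 and 118 CPM in vehicle and at 136 and 145 CPM in Xevinapant samples, again without overlap (0.29, 0.02 to 0.56, adjusted p = 0.42). Hes6 lay below in both Xevinapant samples, with 174, 199 and 201 against 156 and 149.6 CPM (-0.37, -0.66 to -0.08, adjusted p = 0.40). These 3 of 10 members had groups that did not overlap, where 30.9% of 13990 genes did. Such shares, here and below, cover genes with at least 100 UMIs in the class over all samples. Hes1 and Hes6 passed only when each matrix was counted as 1 sample (0.46, adjusted p = 0.034, and -0.33, adjusted p = 0.049), where 683 of 14024 genes passed, and neither did with the matrix number as a replicate block (adjusted p = 0.074 and 0.088).

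The other 7 members overlapped between the groups in tumor cells. Hes5 was at 434, 524 and 603 CPM in vehicle and 326 and 466 CPM in Xevinapant samples (-0.44, -0.93 to 0.04). Dll3 was at 392, 928 and 577 against 580.3 and 463 CPM (-0.32, -1.15 to 0.50), so the vehicle samples alone spanned a range wider than the difference. The intervals of the remaining 5 were -0.57 to 0.44 for Notch1, -0.51 to 0.21 for Notch2, -0.50 to 0.30 for Notch3, -0.63 to 0.28 for Dll1 and -0.41 to 0.86 for Jag1. They bound the difference between these samples, gene by gene and with treatment and batch inseparable, without showing that there was none. By sample, cycling cells were 44.2%, 46.3% and 48.7% of tumor cells in vehicle and 30.7% and 38.3% in Xevinapant samples, without overlap. MES-like cells, at 2.96% to 4.37% and 5.62% to 8.69%, and committed OPC-like cells, at 3.83% to 7.19% and 7.54% to 14.5%, did not overlap either, while the shares of OPC-like and AC-like cells did. The part of this makeup in the tumor-wide values was not tested.

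**Figure D4:**
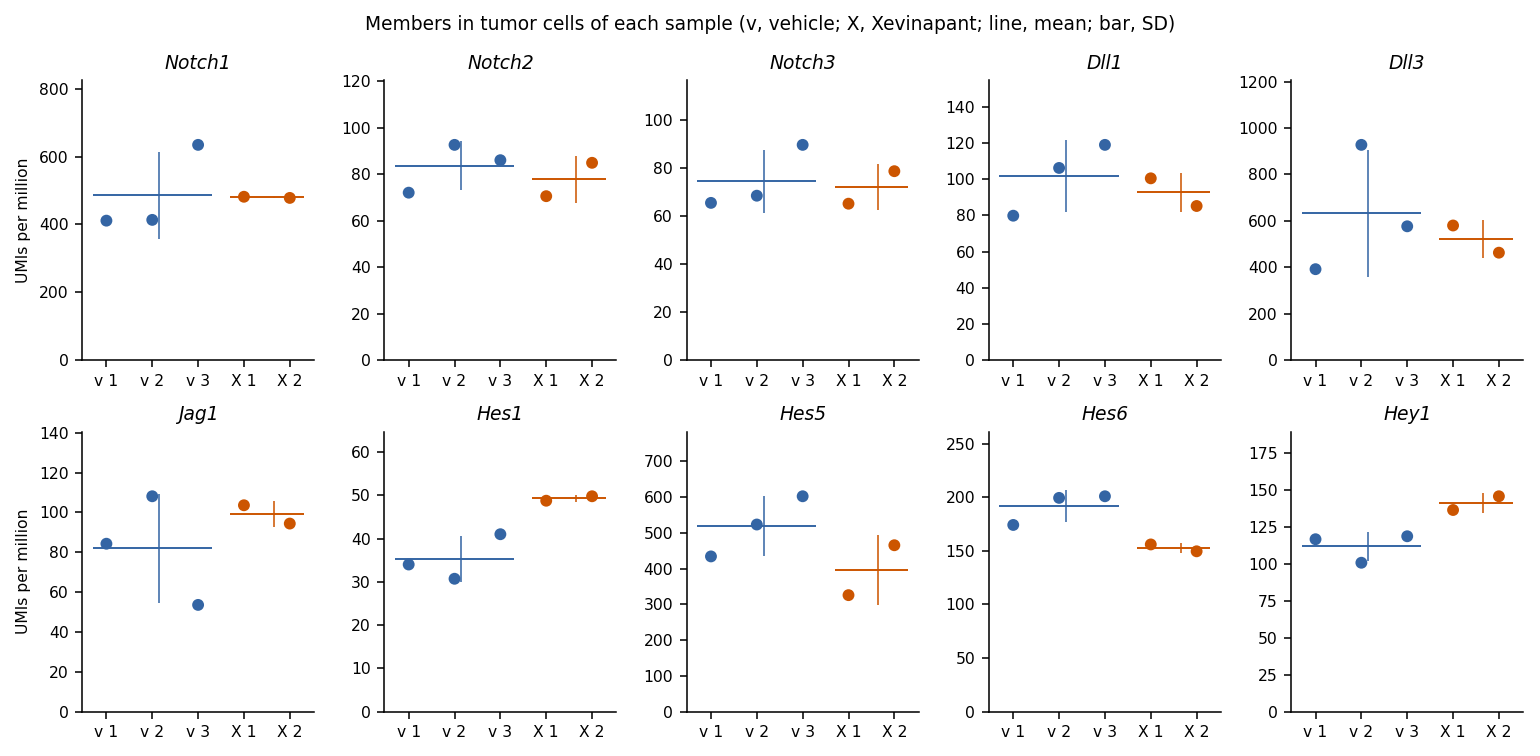
Level in CPM of each member in tumor cells of the 3 vehicle samples (blue) and 2 Xevinapant samples (orange), with the mean as a line and the SD as a bar. The groups do not overlap for Hes1 (34.0, 30.7 and 41.0 against 48.8 and 49.8), Hey1 and Hes6, and no member passed the edgeR test.

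In AC-like cells Hes1 was at 30.9, 25.4 and 32.4 CPM in vehicle and 44.9 and 52.0 CPM in Xevinapant samples (0.72, 0.37 to 1.07, adjusted p = 0.46), and 6 of 10 members did not overlap, Notch2, Hes1 and Hey1 above and Dll1, Dll3 and Hes6 below, where 26.8% of 11701 genes did not. In OPC-like cells 3 members did not overlap, Hes1 above and Hes5 and Hes6 below, where 31.4% of 13212 genes did not. In oligodendrocyte-like cells 6 members did not overlap, where 30% of 7564 genes did not, with Notch1 above and Notch2, Dll3, Hes1, Hes5 and Hey1 below. There Hes1 was at 12.7, 16.4 and 23.1 CPM in vehicle and 11.4 and 3.77 CPM in Xevinapant samples (-1.06, adjusted p = 0.55), but these rest on 9 and 2 UMIs in the Xevinapant samples and 47 UMIs in all 144 cells. Those 47 UMIs are fewer than the 100 asked of the genes in that share. In NPC-like cells Jag1 and Hey1 lay above and Notch2 and Hes5 below, where 25.8% of 10507 genes did not overlap. In vehicle samples 54 of 151, 27 of 101 and 34 of 72 NPC-like cells were inside the tumor gate. In Xevinapant samples 5 of 40 and 61 of 364 were. Outside the gate Hes5 (36.5, 55.3 and 54.2 against 42.9 and 43.4 CPM) and Notch2 (7.43, 14.3 and 4.28 against 13.7 and 9.68 CPM) overlapped between the groups. Jag1 and Hey1 did not overlap there. Inside the gate Hes5 was at 181, 284 and 249.8 CPM in vehicle and 51.4 and 177 CPM in Xevinapant samples. Notch2 was at 41.8, 66.5 and 43.3 against 6.43 and 36.6 CPM. Neither overlapped inside the gate, where Xevinapant 1 had 5 cells, and nor did Hey1, while Jag1 did. The part of the gate mix was not tested. In committed OPC-like cells Jag1 and Hes1 lay above, where 30.9% of 11596 genes did not overlap. In MES-like cells Hes5 was at 155, 218 and 283 CPM in vehicle and 113 and 109 CPM in Xevinapant samples (-0.98, -1.50 to -0.47, adjusted p = 0.11), and Notch2 and Hes6 also lay below, where 37.8% of 11157 genes did not overlap. In MES-like cells 3 members passed without vehicle 1, where 370 of 11852 genes did. Of the pathway lists Dlk1, a non-canonical ligand, passed in MES-like cells with all 5 samples (2.91, SE 0.41, adjusted p = 0.043), a call that was lost without the top 5% of UMI totals, without vehicle 3 and without Xevinapant 2, where 0 genes passed. In endothelial cells Hey1 was at 38.3, 72.6 and 22.7 CPM in vehicle and 84.8 and 102 CPM in Xevinapant samples (0.97, 0.16 to 1.78, adjusted p = 0.52), the 1 member without overlap there, where 23.1% of 4210 genes did not overlap. These values rest on 134 Hey1 UMIs in all, where free RNA would give 22.4, and on 23, 19 and 25 endothelial cells in the vehicle samples. In macrophages and monocytes Notch2 lay above in the Xevinapant samples (0.61, 0.07 to 1.15, adjusted p = 0.58) and Hes5, which is at 0.848 of the free RNA level there, below (-1.45, -2.59 to -0.32, adjusted p = 0.53), where 24.1% of 7989 genes did not overlap.

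Co-detection in single tumor cells was described after thinning to 2000 UMIs, as the share of cells with a UMI of 1 gene among cells with and without a UMI of another. Cells with Dll3 had Hes5 less often than cells without it in all 5 samples, 36.6% against 45.7% on average, with ratios of 0.772 to 0.827. The ratio of the Hes5 shares was nearer 1 within OPC-like cells, 0.927 to 0.985. Cells with Dll3 had Hes6 (ratios 1.23 to 1.37) and Dll1 (1.69 to 1.94) more often, and within OPC-like cells these were 1.10 to 1.253 and 1.41 to 1.60. Cells with Notch1 had Hes5 more often, 45.4% against 36.5%, with ratios of 1.15 to 1.41. Cells with Hes5 had Hey1 in 26.1% against 12.9% of cells, with ratios of 1.72 to 2.31, and of 1.19 to 1.63 within OPC-like cells. Hes6 was found in a like share of cells with and without Hes5, 26.5% against 26.8%, with ratios of 0.930 to 1.07 on either side of 1. The pairs mix cells of different states in the tumor-wide values, and at this depth a cell without a UMI may still express the gene.

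**Figure D5:**
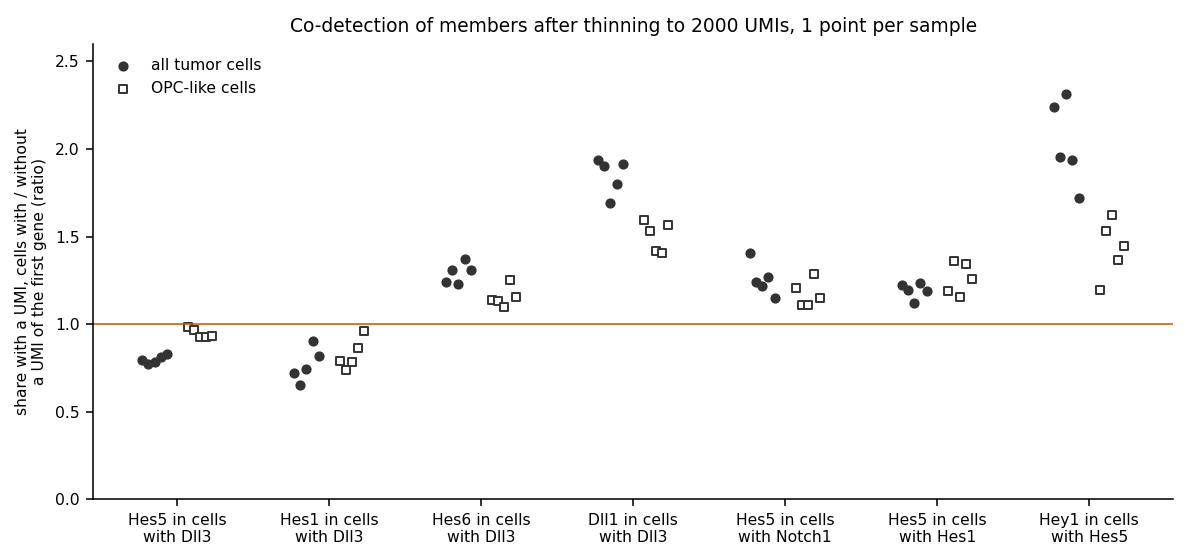
Ratio of the share of cells with a UMI of the second gene among cells with against without a UMI of the first gene, after thinning to 2000 UMIs, with 1 point per sample for all tumor cells (filled) and OPC-like cells (open); the line marks 1. Hes5 in cells with Dll3 lies at 0.772 to 0.827 in tumor cells and closer to 1 in OPC-like cells, and Dll1 in cells with Dll3 at 1.69 to 1.94.

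The full order of the 13 classes was as follows, each level a mean ± SD in CPM over the samples with at least 5 cells (4 samples for neutrophils, 5 otherwise). Ranges that overlap are not distinguished by these samples. Free tumor RNA was not subtracted, so low averages in the non-malignant classes can be background. Over all samples Hes5 in neutrophils rests on 12 UMIs, where free RNA would give 9.97. Dll1 in neutrophils rests on 2, where it would give 2.26, and Notch3 in lymphoid cells on 2, where it would give 2.25. Notch1 averaged 676 ± 341 in MES-like cells, 600.0 ± 59.3 in AC-like cells, 446 ± 104 in OPC-like cells, 437 ± 58.3 in endothelial cells, 362 ± 109 in oligodendrocyte-like cells, 339 ± 53.9 in committed OPC-like cells and 284 ± 74.0 in mural cells. Below these came Notch1 at 255 ± 75.1 in NPC-like cells, 228 ± 40.1 in lymphoid cells, 114 ± 98.1 in neutrophils, 92.2 ± 19.4 in microglia, 91.8 ± 11.6 in macrophages and monocytes and 62.4 ± 17.5 in fibroblasts. Ranges of neighbouring classes overlapped all the way down. Notch2 averaged 389.7 ± 247 in neutrophils, 159.7 ± 49.5 in macrophages and monocytes, 146 ± 15.9 in AC-like cells, 131 ± 64.7 in lymphoid cells, 111 ± 18.5 in microglia, 103 ± 29.6 in fibroblasts and 79.5 ± 19.5 in MES-like cells. Below these came Notch2 at 68.7 ± 6.85 in OPC-like cells, 40.9 ± 14.5 in oligodendrocyte-like cells, 38.0 ± 29.2 in mural cells, 37.8 ± 4.997 in committed OPC-like cells, 20.9 ± 7.39 in NPC-like cells and 14.6 ± 13.8 in endothelial cells. Neighbours whose Notch2 ranges did not overlap were neutrophils against macrophages and monocytes. Notch3 averaged 1353 ± 488 in mural cells, 408 ± 31.8 in AC-like cells, 63.5 ± 9.36 in MES-like cells, 48.6 ± 29.3 in fibroblasts, 37.7 ± 12.18 in OPC-like cells, 15.5 ± 14.2 in endothelial cells and 14.2 ± 8.03 in committed OPC-like cells. Below these came Notch3 at 13.2 ± 4.06 in NPC-like cells, 11.4 ± 8.27 in oligodendrocyte-like cells, 9.86 ± 12.3 in microglia, 9.1 ± 17.5 in lymphoid cells and 3.85 ± 2.96 in macrophages and monocytes, with 0 UMIs in neutrophils. Neighbours whose Notch3 ranges did not overlap were mural cells against AC-like cells, and AC-like cells against MES-like cells.

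Among the ligands the order differed from gene to gene. Dll1 averaged 114 ± 16.9 in OPC-like cells, 111 ± 44.1 in endothelial cells, 98.1 ± 11.5 in committed OPC-like cells, 91.4 ± 25.3 in MES-like cells, 57.4 ± 30.03 in NPC-like cells, 53.2 ± 17.3 in oligodendrocyte-like cells and 36.0 ± 3.84 in AC-like cells. Below these came Dll1 at 19.1 ± 21.8 in mural cells, 10.5 ± 10.8 in lymphoid cells, 7.01 ± 5.22 in fibroblasts, 5.84 ± 3.76 in microglia, 3.72 ± 2.97 in macrophages and monocytes and 3.07 ± 3.91 in neutrophils. No class stood apart from the one above it for Dll1. Dll3 averaged 852 ± 175 in committed OPC-like cells, 735 ± 318 in NPC-like cells, 642 ± 203 in OPC-like cells, 575 ± 298 in MES-like cells, 379 ± 189.7 in oligodendrocyte-like cells, 159 ± 49.1 in AC-like cells and 65.4 ± 92.2 in fibroblasts. Below these came Dll3 at 61.9 ± 63.8 in neutrophils, 41.4 ± 51.2 in endothelial cells, 28.3 ± 13.1 in microglia, 20.3 ± 10.998 in macrophages and monocytes, 20.1 ± 11.99 in mural cells and 11.2 ± 16.7 in lymphoid cells. For Dll3, too, each class overlapped its neighbours. Jag1 averaged 367 ± 84.4 in mural cells, 195 ± 93.5 in endothelial cells, 169.7 ± 30.3 in MES-like cells, 167 ± 62.4 in fibroblasts, 164 ± 42.4 in macrophages and monocytes, 151 ± 57.0 in AC-like cells and 73.0 ± 39.7 in NPC-like cells. Below these came Jag1 at 67.2 ± 20.03 in OPC-like cells, 47.9 ± 9.6 in oligodendrocyte-like cells, 44.5 ± 11.1 in committed OPC-like cells, 40.7 ± 7.33 in microglia, 26.5 ± 29.7 in neutrophils and 3.99 ± 5.49 in lymphoid cells. Jag1 gave an unbroken order as well.

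The Hes and Hey genes were ordered in 4 different ways. Hes1 averaged 196 ± 67.7 in endothelial cells, 106 ± 26.4 in fibroblasts, 98.9 ± 17.9 in MES-like cells, 91.1 ± 67.0 in mural cells, 48.2 ± 8.88 in microglia, 37.1 ± 10.96 in AC-like cells and 34.98 ± 7.09 in OPC-like cells. Below these came Hes1 at 25.9 ± 23.6 in macrophages and monocytes, 23.5 ± 21.5 in lymphoid cells, 19.5 ± 8.36 in NPC-like cells, 16.6 ± 2.82 in committed OPC-like cells and 13.5 ± 7.07 in oligodendrocyte-like cells, with 0 UMIs in neutrophils. Oligodendrocyte-like cells and neutrophils were the 1 pair of neighbours whose Hes1 ranges did not overlap, but the 7.39 CPM that a count of 0 allows in neutrophils lies above the lowest oligodendrocyte-like value, 3.77 CPM. Hes5 averaged 1648 ± 143 in AC-like cells, 344 ± 111 in OPC-like cells, 188 ± 57.5 in committed OPC-like cells, 176 ± 74.4 in MES-like cells, 154 ± 103 in oligodendrocyte-like cells, 107 ± 134 in neutrophils and 98.8 ± 40.7 in NPC-like cells. Below these came Hes5 at 60.6 ± 26.9 in mural cells, 48.1 ± 38.5 in endothelial cells, 35.9 ± 21.0 in microglia, 35.3 ± 45.1 in lymphoid cells, 31.3 ± 18.2 in macrophages and monocytes and 25.8 ± 13.7 in fibroblasts. Neighbours whose Hes5 ranges did not overlap were AC-like cells against OPC-like cells. Hes6 averaged 376 ± 195 in NPC-like cells, 218 ± 45.4 in MES-like cells, 172 ± 20.2 in OPC-like cells, 133 ± 9.87 in committed OPC-like cells, 112 ± 20.4 in AC-like cells, 108 ± 25.03 in oligodendrocyte-like cells and 105 ± 79.5 in lymphoid cells. Below these came Hes6 at 61.5 ± 10.9 in microglia, 49.99 ± 12.6 in macrophages and monocytes, 46.6 ± 15.4 in fibroblasts, 38.2 ± 12.8 in endothelial cells, 35.6 ± 20.5 in mural cells and 14.3 ± 16.9 in neutrophils. Neighbours whose Hes6 ranges did not overlap were OPC-like cells against committed OPC-like cells. Hey1 averaged 387 ± 64.2 in AC-like cells, 148 ± 24.1 in MES-like cells, 75.8 ± 6.14 in OPC-like cells, 64.1 ± 32.9 in endothelial cells, 60.7 ± 23.3 in mural cells, 57.0 ± 7.55 in committed OPC-like cells and 51.2 ± 20.9 in oligodendrocyte-like cells. Below these came Hey1 at 48.1 ± 10.3 in NPC-like cells, 21.1 ± 10.8 in macrophages and monocytes, 19.6 ± 12.9 in microglia, 15.3 ± 7.41 in fibroblasts, 12.7 ± 15.03 in neutrophils and 7.2 ± 11.6 in lymphoid cells. Neighbours whose Hey1 ranges did not overlap were AC-like cells against MES-like cells, and MES-like cells against OPC-like cells.

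Likeness of pattern was measured as Pearson's r of mean log2 CPM over 13 classes against 5784 or 5785 other genes with a mean log2 CPM of at least 5, a floor that Notch3, Dll1 and Hes1 did not reach, as a description, since the classes share libraries and depth. The genes most like Hes5 were Slc1a3, a glutamate transporter of astrocytes (0.92), Mt3 (0.92) and Med25 (0.90). Those most like Hey1 were Atp1b2 (0.94), Cdkn2a (0.93) and Ndrg2 (0.92), and those most like Notch3 were Serpine2 (0.90), Kremen1 (0.90) and Plat (0.87). Dll3 was followed by Nova1 (0.97), Col9a3 (0.96) and LTO1 (0.96), Dll1 by Wscd1 (0.96), Fam174b (0.95) and Lrp4 (0.94), and Jag1 by Gas2l1 (0.91), Stom (0.90) and Lrp5 (0.89). Notch1 was followed by Usp6nl (0.93) and Zfp664 (0.91), and Notch2, with the loosest likeness, by Arap1 (0.86), Jdp2 (0.84) and Gadd45b (0.81). Hes1 was followed by Chpf2 (0.91), Igfbp4 (0.91) and Sh3pxd2a (0.91), and Hes6 by Tsc1 (0.98), Psme4 (0.98) and Trpc4ap (0.97).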

How the data were processed

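Single-cell UMI counts of 8 matrices were analysed, 4 of a vehicle pool and 4 of a Xevinapant pool, grouped by their labels; the word Vehicle in some file names of the Xevinapant pool was not followed. The authors deposited whole-number UMI counts per gene and barcode, mapped to mm10; the matrix headers name Cell Ranger 7.1.0, a newer release than the study's methods give. Seurat is named in the submitters' processing notes. Their doublet calls and annotation are not used here.

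Barcodes passed the study's filters (at least 200 genes, at most 10% mitochondrial UMIs, complexity at least 0.8; 54574 passed) and at least 1000 UMIs. Low copies of a barcode shared between groups, at over 20 times fewer UMIs, were removed. Classes were gated on marker UMIs per 10000 with least numbers of markers (for example at least 40 per 10000 and 3 markers for endothelial cells); near the tumor cut lay 1469 barcodes just above and 1167 just below. Of the markers and list genes 4 had no row (Celf4, Ccnb1, Notch4 and Aph1b). No doublet caller was run; barcodes with mixed markers were set aside.

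Counts were summed per sample and class (at least 10 cells) and tested with edgeR 4.0.16 in R 4.3.3 (TMM, filterByExpr, glmQLFTest). Some of these tests were also run on counts simulated with the fitted dispersions and no batch effect, which cannot show how they behave with one. DESeq2 1.42.0, no TMM, no filter, doubled cuts, omission of each sample, of the top 5% of UMI totals or of shared barcodes, and other sample units were tried. Intervals for UMIs are Poisson at 95% and cover counting error only. Promoter windows came from RefSeq and gene positions from GENCODE annotation of GRCm38. The named genes were the 10 members, up to 3 genes with the largest absolute change per pathway list among those called, and the 3 genes of closest pattern per member; from these the text names those its results turn on, and 1 of them is not reported here. The members, lists and tests were chosen with earlier results of these data known.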

Additional observations from a re-analysis of the deposited data

How the results depend on the processing

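No paired analysis was possible for the 5 joined samples because the labels give each group as 1 sample. The matrices carry numbers, and the 1413 full barcodes found in both groups all lay in matrices of the same number, but deviations of same-numbered matrices from their group means correlated at only -0.24 to 0.21 in tumor cells. With each matrix as 1 sample and its number as a replicate block, chosen after seeing the data, 0 members passed in tumor cells (Hes1 at 0.47, adjusted p = 0.074), where 33 of 14383 genes did, 1 each in AC-like, MES-like and not cycling cells, where 27 of 11704, 1000 of 11629 and 85 of 13231 genes did, and 0 in the other classes tested, and tumor Notch1 was at 0.028. Across the alternatives 1674 values of single members kept their direction and side of the threshold, 40 lost a call and 23 gained one. A further 33 turned direction and are not in these counts, and some of them gained or lost a call. For treatment, the members called, 0 in each class, became 2 in tumor cells with each matrix counted as 1 sample and 1 each in MES-like and not cycling cells. There 683 of 14024, 1251 of 11322 and 299 of 12905 genes passed. Without a filter on low counts they became 1 in fibroblasts, 2 in AC-like, 2 in oligodendrocyte-like, 3 in NPC-like and 5 in MES-like cells, where 169 of 14864, 226 of 16556, 221 of 13527, 300 of 15368 and 1206 of 16245 genes passed. With DESeq2 they became 1 in oligodendrocyte-like and 2 in MES-like cells, where 17 of 9628 and 474 of 11699 genes passed. Omitting 1 sample gave 0 to 3 in MES-like cells, 3 without vehicle 1. Over all genes the treatment calls in tumor cells went from 0 to 284 with DESeq2 and 683 with each matrix as 1 sample, and in MES-like cells from 30 to 474 and 1251. In MES-like cells 370 genes passed without vehicle 1, 5 with marker cuts doubled, 2 without Xevinapant 1, 1 without vehicle 2, and 0 without vehicle 3, without Xevinapant 2 or without the top 5% of UMI totals. In endothelial cells 19 became 133 without a filter, 75 without Xevinapant 1, and 0 without vehicle 1 or vehicle 3. The cause of these changes was not tested.

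With marker cuts doubled, directions turned for OPC-like Notch3 (-1.06) and Hes6 (-0.11), oligodendrocyte-like Dll1 (0.23), NPC-like Dll3 (-0.14), cycling Hes1 (-0.051), endothelial Notch1 (0.23) and fibroblast Notch3 (0.47). Without the top 5% of UMI totals OPC-like Notch3 was at -0.043 and endothelial Notch1 at 0.11, with DESeq2 OPC-like Hes6 was at -0.0025 and endothelial Notch1 at 0.048, and without TMM cycling Notch1 was at -0.0072. Without a filter endothelial Notch1 was at 0.12 and fibroblast Notch3 at 0.030, with at least 5 cells at 0.070 and 0.014, and with each matrix as 1 sample tumor Notch1 under treatment was at 0.0047. Omitting each sample in turn gave -0.0037 to 0.093 for OPC-like Hes6, -0.081 to 0.046 for cycling Dll1, -0.12 to 0.15 for endothelial Notch1, -0.33 to 0.22 for fibroblast Notch3 and -0.0025 to 0.54 for lymphoid Notch2. Under treatment in tumor cells it gave -0.18 to 0.18 for Notch1, -0.23 to 0.059 for Notch3, -0.59 to 0.059 for Dll3 and -0.0020 to 0.48 for Jag1. Of these, OPC-like Notch3 and fibroblast Notch3 passed with doubled cuts and the other turned values did not pass under the alternative that turned them.

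Thinning to 1000 UMIs lowered the share of tumor cells with a UMI to 34.2% for Notch1, 7.42% for Notch2, 6.50% for Notch3, 9.11% for Dll1, 33.2% for Dll3, 8.23% for Jag1, 4.06% for Hes1, 28.3% for Hes5, 15.3% for Hes6 and 10.5% for Hey1, since fewer UMIs are drawn. Depth limits the rarer classes: 48 mural cells and 405757 neutrophil UMIs cannot resolve members of low level. Keeping the low copies or leaving out barcodes of both groups changed no count of members called.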
